A study of Mus musculus with 2 samples.

Results

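Plexins and neuropilins, the cell-surface receptors of the semaphorin guidance cues, were described in total RNA from the newborn mouse forebrain. The 10 genes were taken by symbol from the 43346 genes of the deposited tables: the class A plexins Plxna1, Plxna2, Plxna3 and Plxna4, the class B plexins Plxnb1 and Plxnb2, the single class C and class D plexins Plxnc1 and Plxnd1, and the neuropilins Nrp1 and Nrp2. Each symbol matched 1 gene in both libraries, and the 10 genes carried 45 transcripts. The rule that chose them used no measured value.

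The samples were 2 single forebrains of newborn B6NCrl mice (postnatal day 0), from pup 1 (replicate 1) and pup 3 (replicate 2), with no treatment or genetic change named in the labels. Both carried the same donor identifier and their sex was not collected. RNA longer than 200 nt was taken from a 10 ng input, spike-in RNAs were added, and 1 library was made per pup. Both pups formed 1 group, so no contrast between conditions existed, and differences between the pups measured the spread between these samples, which may be technical as well as between animals.

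The libraries held 40066386 expected counts in pup 1 and 40431595 in pup 3, and they differed from each other by more than counting noise (chi-square over its degrees of freedom of 52.4 over 18944 genes). All 8 forebrain markers were detected, from Neurod6, a transcription factor of cortical neurons, to Emx2, a patterning gene of the dorsal forebrain, which was the lowest at 9.76 TPM in pup 1 and 3.94 TPM in pup 3. Of the 6 hindbrain and spinal cord markers none reached the detection threshold of 1 TPM in both pups, 3 were listed at 0 in both, and their summed level was 1.08 TPM in pup 1 and 1.04 TPM in pup 3. The 6 thalamic markers summed to 361.9 TPM in pup 1 and 141.0 TPM in pup 3, and each of the 6 was at least 2-fold higher in pup 1. After scaling with trimmed-mean (TMM) factors from edgeR, 3 of the 6 were at least 2-fold higher (Tcf7l2, Lhx9 and Prox1).

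Plexins are single-pass receptors whose intracellular part carries a GTPase-activating domain for small Ras-family GTPases, so that a semaphorin signal reaches the cytoskeleton and cell adhesion. Most secreted class 3 semaphorins do not act on plexins alone: they bind a neuropilin, which has only a short cytoplasmic tail, and the neuropilin forms a complex with a plexin, most often of class A, that sends the signal. Membrane-bound semaphorins bind plexins directly, and neuropilins also bind members of the VEGF family together with VEGF receptors. In the developing forebrain these receptors are known for axon guidance, for the migration of interneurons and for the growth of blood vessels.

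Levels are given in TPM, a measure of transcript abundance that corrects for transcript length and so allows genes to be set beside each other. In bulk tissue, fewer cells of a type and less RNA per cell cannot be told apart. All 10 receptor genes were detected in both pups, where 60.7% of 21461 nuclear protein-coding genes were. A level of 10 TPM in both pups was reached by 6 of the 10, where 36.3% of these genes reached it. Of these 6, Plxna3 had only 9.64 TPM in pup 3 over protein-coding transcripts alone. The mean levels of the 10 receptor genes ran between 7.46 TPM for Plxnb1 and 40.8 TPM for Plxnb2, and 5 of the 10 lay above the median of the 13017 detected protein-coding genes, 17.0 TPM.

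**Figure D1:**
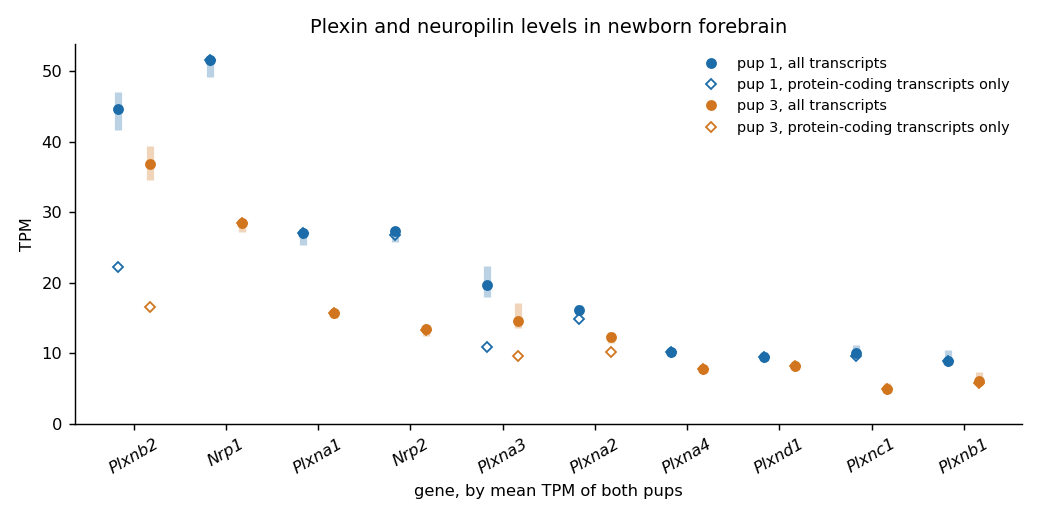
Level in TPM (linear axis) of the 10 plexin and neuropilin genes in pup 1 and pup 3, over all transcripts of a gene (filled points, with the deposited credibility interval as a pale bar) and over its protein-coding transcripts only (open diamonds). Nrp1 and Plxnb2 stood highest over all transcripts, and Plxnb2 lay well lower over protein-coding transcripts, at 22.2 TPM in pup 1 and 16.5 TPM in pup 3.

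The neuropilins bind the ligand in these receptor complexes. Nrp1, the neuropilin that serves Sema3a and the VEGF-A isoform that binds heparin, lies on the plus strand of chromosome 8 (chr8:128358604-128503363, mm10). It had 51.5 TPM in pup 1 and 28.5 TPM in pup 3, a mean of 40.02 ± 16.3 TPM (SD, n = 2). These levels rested on 7442 expected counts in pup 1 and 4659 in pup 3, the highest counts of the 10 genes. Nrp1 ranked first of the 10 in pup 1 and second, behind Plxnb2, in pup 3.

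Nrp2, the neuropilin with a preference for Sema3f and VEGF-C, lies on the plus strand of chromosome 1 (chr1:62703285-62818695, mm10). It had 27.3 TPM in pup 1 and 13.4 TPM in pup 3, a mean of 20.3 ± 9.86 TPM (SD, n = 2). The ratio of Nrp1 to Nrp2 was 1.89 in pup 1 and 2.13 in pup 3, or 1.00 ± 0.12 on the log2(TPM + 0.1) scale (SD, n = 2). Nrp1 was thus the higher neuropilin in both libraries by more than the pup spread, although both genes had higher TPM in pup 1.

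Nrp2 is made as forms that differ in how they end. The deposited transcript tables resolved 6 protein-coding forms that differ at 3 places. The alternatives are shown because the receptor's membrane-proximal region, transmembrane segment and tail depend on them; the letters are those of the GENCODE M21 transcripts. The first is an exon that can be spliced at either of 2 donor sites; the capitals mark the 15 bases that only the longer version keeps (chr1:62786281-62786316, plus strand, mm10).
Nrp2 alternative donor-site exon: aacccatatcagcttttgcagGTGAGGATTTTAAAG

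The second is an optional exon of 51 bases (chr1:62812534-62812584, plus strand, mm10), found only in forms with the distal end.
Nrp2 optional exon: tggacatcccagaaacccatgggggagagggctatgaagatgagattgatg

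The third is the choice between a proximal last coding exon with 278 coding bases and a distal one with 302. Their last 150 coding bases, without stop codons, are shown (proximal chr1:62795837-62795986, distal chr1:62815485-62815634, plus strand, mm10). As background, forms with the distal end (Nrp2a) close with the PDZ-binding residues that Gipc1 binds, whose 9 bases are in capitals, and forms with the proximal end (Nrp2b) have another transmembrane and cytoplasmic part without them.
Nrp2 proximal end: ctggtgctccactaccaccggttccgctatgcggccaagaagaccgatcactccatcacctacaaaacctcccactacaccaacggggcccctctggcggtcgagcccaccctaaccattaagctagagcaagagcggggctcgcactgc
Nrp2 distal end: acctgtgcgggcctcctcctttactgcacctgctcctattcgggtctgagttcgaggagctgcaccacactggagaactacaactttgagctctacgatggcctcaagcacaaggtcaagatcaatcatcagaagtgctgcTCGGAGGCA

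Forms with the distal end held 55.5% of Nrp2 TPM in pup 1 and 58.6% in pup 3 (57.1 ± 2.25%, SD, n = 2), and forms with the proximal end held 42.6% in pup 1 and 40.2% in pup 3 (41.4 ± 1.70%). Both ends were therefore present at comparable shares in each library, with the distal end the larger. Within them, the form with the largest estimated share was Nrp2-204, of 909 codons, with the distal end, the short donor site and no optional exon. It held 42.4% in pup 1 and 38.0% in pup 3.

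Nrp2-201, of 906 codons, with the proximal end and the 15-base extension, came next at 33.7% in pup 1 and 27.8% in pup 3. The deposited interval in pup 1 was 7.5 to 12 TPM for Nrp2-204 and 7.86 to 10 TPM for Nrp2-201. In pup 3 it was 2.03 to 5.95 TPM for Nrp2-204 and 2.87 to 4.34 TPM for Nrp2-201. The intervals of these forms overlapped in both pups, so their order was not resolved. The remaining coding forms each held 12.4% or less in either pup on TPM as deposited. Nrp2-203 (914 codons, distal end with the extension) held 3.63% in pup 1 and 10.08% in pup 3. With posterior mean TPM it held 8.05% in pup 1 and 15.85% in pup 3. Nrp2-205 (901 codons, proximal end, no extension) held 8.95% in pup 1 and 12.4% in pup 3, and Nrp2-202 (926 codons, distal end with the optional exon) held 8.92% in pup 1 and 9.39% in pup 3. The form with both insertions, Nrp2-206 (931 codons), was the lowest at 0.47% in pup 1 and 1.21% in pup 3.

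By the estimated shares, the 2 small insertions were spread unequally over the 2 ends. Forms with the 15-base extension held 79.0% of proximal-end TPM in pup 1 and 69.2% in pup 3, against 7.39% of distal-end TPM in pup 1 and 19.3% in pup 3. The 2 proximal forms also differ outside the coding sequence, as Nrp2-201 has 4216 nt and Nrp2-205 has 6534 nt. Their split therefore need not rest on reads over the donor site, which was not tested. The optional exon was carried by 16.9% of distal-end TPM in pup 1 and 18.1% in pup 3. These shares are model estimates from short reads: with posterior mean TPM the extension's share of the distal end was 16.2% in pup 1 and 30.5% in pup 3, still below the proximal end's 78.7% in pup 1 and 68.6% in pup 3. The interval of Nrp2-203, the distal form with the extension alone, spanned 0.418 to 4.44 TPM in pup 1 and 0.351 to 3.99 TPM in pup 3, so the level of that form was poorly resolved.

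**Figure D2:**
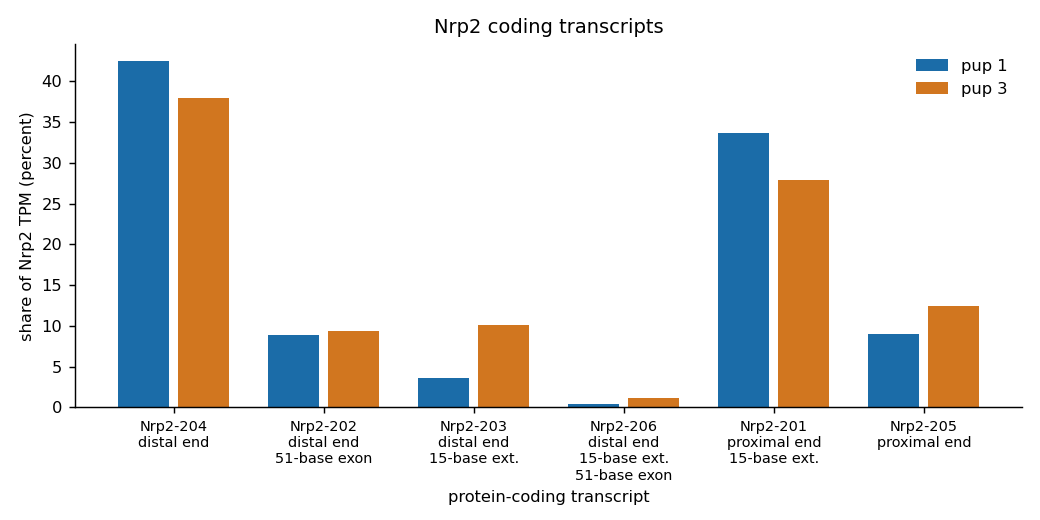
Share of Nrp2 TPM (percent) of the 6 protein-coding forms in pup 1 and pup 3, by their end and insertions. Nrp2-204 had the largest share in both pups, at 42.4% in pup 1 and 38.0% in pup 3, followed by Nrp2-201. The deposited TPM intervals of Nrp2-204 and Nrp2-201 overlapped in both pups.

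The class A plexins are the signalling partners that neuropilins most often use. Together the 4 genes had 72.9 TPM in pup 1 and 50.4 TPM in pup 3. This was 49.997% of the summed TPM of the plexins listed here in pup 1 and 47.3% in pup 3 (48.7 ± 1.89%, SD, n = 2). Plexin sums and shares in this report cover the listed plexins only. The summed neuropilin level stood at 1.08 times this class A level in pup 1 and 0.831 times in pup 3, so which of these sums was higher differed between the pups.

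Plxna1, which pairs with Nrp1 in Sema3a signalling, lies on the minus strand of chromosome 6 (chr6:89316314-89362620, mm10). It was the highest class A plexin in both libraries, with 27.03 TPM in pup 1 and 15.7 TPM in pup 3 (21.4 ± 8.01, SD, n = 2). Its annotated 9025-nt transcript Plxna1-202 held 87.8% in pup 1 and 100% in pup 3. The shorter Plxna1-201 held 12.2% in pup 1 and 0% in pup 3, and the coding exons of the 2 transcripts are the same, so both encode the same annotated protein.

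Plxna3, which is used with Nrp2 in Sema3f signalling, lies on the X chromosome (X:74329066-74344689, plus strand, mm10). It had 19.6 TPM in pup 1 and 14.6 TPM in pup 3 (17.1 ± 3.54, SD, n = 2). Only 55.6% of that in pup 1 and 66.0% in pup 3 came from its single protein-coding transcript, Plxna3-201, at 10.9 TPM in pup 1 and 9.64 TPM in pup 3. The retained-intron transcript Plxna3-203, of 984 nt, held 17.9% in pup 1 and 14.4% in pup 3. TPM divides by length, and of the expected counts of Plxna3 the protein-coding Plxna3-201 held 87.8% in pup 1 and 91.7% in pup 3.

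Plxna2, a receptor for membrane-bound Sema6a as well as a neuropilin partner, lies on the plus strand of chromosome 1 (chr1:194618218-194816869, mm10). It had 16.1 TPM in pup 1 and 12.3 TPM in pup 3 (14.2 ± 2.69, SD, n = 2). Its protein-coding transcript Plxna2-201 held 91.7% in pup 1 and 82.0% in pup 3, and the retained-intron transcript Plxna2-202 was listed at 0 in pup 1 and held 13.1% in pup 3.

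Plxna4, which takes part in Sema3a and Sema6a signalling, spans 444 kb, the longest of the 10 genes, on the minus strand of chromosome 6 (chr6:32144268-32588192, mm10). It was the lowest class A plexin, with 10.2 TPM in pup 1 and 7.80 TPM in pup 3 (9.00 ± 1.70, SD, n = 2). All of its TPM was assigned to Plxna4-201, a transcript of 12877 nt. The order within class A was Plxna1, Plxna3, Plxna2 and Plxna4 in both pups over all transcripts. Over protein-coding transcripts alone Plxna2 stood above Plxna3, at 14.8 TPM in pup 1 and 10.1 TPM in pup 3 for Plxna2, although the ratio of these 2 genes did not then exceed the pup spread.

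The class B plexins bind class 4 semaphorins and signal to RhoA through PDZ-RhoGEF and LARG, which bind their tails. Plxnb2, known for its part in neural tube closure and in the migration of cerebellar granule cells, lies on the minus strand of chromosome 15 (chr15:89155549-89180788, mm10). It had 44.6 TPM in pup 1 and 36.9 TPM in pup 3 (40.8 ± 5.51, SD, n = 2), the highest mean of the 10 genes. Plxnb1, a receptor for Sema4d, lies on the plus strand of chromosome 9 (chr9:109095389-109119917, mm10) and was the lowest of the 10 by mean, with 8.84 TPM in pup 1 and 6.07 TPM in pup 3 (7.46 ± 1.959, SD, n = 2). The ratio of Plxnb2 to Plxnb1 was 5.05 in pup 1 and 6.07 in pup 3.

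Much of the Plxnb2 level came from a short transcript with no annotated coding sequence. Plxnb2-205, a processed transcript of 841 nt, held 45.6% of Plxnb2 TPM in pup 1 and 52.9% in pup 3, while the protein-coding Plxnb2-202, of 6377 nt, held 48.5% in pup 1 and 44.9% in pup 3. Plxnb2 was the only one of the 10 genes whose leading transcript by estimated share changed between the pups. Nrp1 and Plxna4 had 1 transcript each, so theirs could not change. In pup 1 the deposited intervals of Plxnb2-202 (18.6 to 22.2 TPM) and Plxnb2-205 (17.4 to 22.2 TPM) overlapped. Which of these transcripts led in pup 1 was therefore not resolved. Because TPM divides by length, Plxnb2-205 reached these shares with 375.5 expected counts in pup 1 and 407.4 in pup 3, while Plxnb2-202 had 3377 in pup 1 and 2921 in pup 3. Protein-coding transcripts held 89.6% of Plxnb2 counts in pup 1 and 87.5% in pup 3.

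All 3 exons of Plxnb2-205 in the M21 annotation lie inside exons at the 3′ end of Plxnb2-202, and they differ from it by 1 extra intron of 78 nt in the untranslated region. The last 2 coding exons of Plxnb2 are shown because both transcripts contain them, so that reads there can be assigned to either (chr15:89156498-89156572 and chr15:89156284-89156385, minus strand, mm10, the last without its stop codon).
Plxnb2 penultimate coding exon: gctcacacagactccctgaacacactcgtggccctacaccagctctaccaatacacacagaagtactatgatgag
Plxnb2 last coding exon: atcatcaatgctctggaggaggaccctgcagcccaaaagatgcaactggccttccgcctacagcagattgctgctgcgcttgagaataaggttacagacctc

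Over protein-coding transcripts Plxnb2 had 22.2 TPM in pup 1 and 16.5 TPM in pup 3, and its ratio to Plxnb1 was 2.51 in pup 1 and 2.85 in pup 3. On that scale it ranked by mean behind Nrp1, Plxna1 and Nrp2. Of Plxnb1's TPM, 86.6% in pup 1 and 81.5% in pup 3 came from Plxnb1-201, a transcript of 8602 nt.

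**Figure D3:**
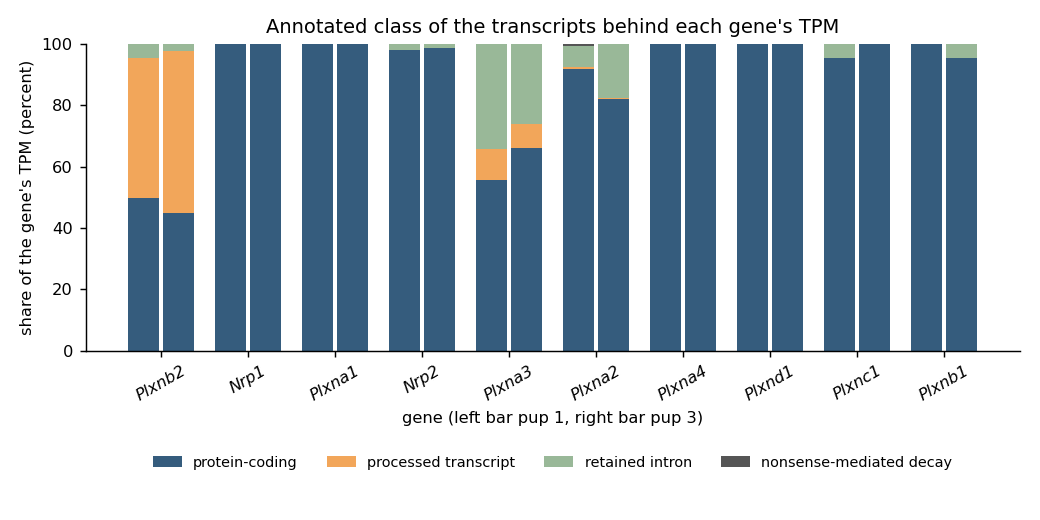
Share of each gene's TPM (percent) held by protein-coding, processed, retained-intron and nonsense-mediated-decay transcripts, with the left bar for pup 1 and the right bar for pup 3. Plxnb2 and Plxna3 had large noncoding shares of TPM, although protein-coding transcripts held most of the expected counts of both genes. Protein-coding transcripts held 49.8% of Plxnb2 TPM in pup 1 and 44.9% in pup 3.

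Plxnd1, the receptor of Sema3e that works without a neuropilin in blood vessels, lies on the minus strand of chromosome 6 (chr6:115954811-115995005, mm10). It had 9.40 TPM in pup 1 and 8.21 TPM in pup 3 (8.81 ± 0.841, SD, n = 2), with the smallest spread relative to its mean of the 10. Its ligand Sema3e had 3.37 TPM in pup 1 and 1.84 TPM in pup 3. The 8 endothelial markers summed to 162.1 TPM in pup 1 and 157.4 TPM in pup 3, but Cldn5, a tight-junction gene, made up most of that. The other 7 summed to 52.9 TPM in pup 1 and 43.4 TPM in pup 3. On TPM as deposited, 6 of the 8 were higher in pup 1, where 80.4% of all genes were. After TMM scaling 2 of the 8 were higher in pup 1.

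Plxnc1, the receptor of the membrane-anchored Sema7a, lies on the minus strand of chromosome 10 (chr10:94790866-94944835, mm10). It had 10.1 TPM in pup 1 and 4.97 TPM in pup 3 (7.52 ± 3.61, SD, n = 2), and its 972 expected counts in pup 3 were the fewest of the 10 genes in either library. Sema7a was the lowest of the 13 membrane-bound semaphorins, with 1.69 TPM in pup 1 and 1.90 TPM in pup 3. Nearly all Plxnc1 TPM came from Plxnc1-201, at 95.3% in pup 1 and 100% in pup 3, and all Plxnd1 TPM from Plxnd1-201.

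The order of the 10 genes by mean TPM was Plxnb2, Nrp1, Plxna1, Nrp2, Plxna3, Plxna2, Plxna4, Plxnd1, Plxnc1 and Plxnb1. A step between neighbours counted as beyond the spread of the pups if its log2 ratio had 1 sign in both and a mean over 3 SD. By this rule 3 of the 9 neighbouring pairs differed. Nrp1 exceeded Plxna1 by 1.90-fold in pup 1 and 1.81-fold in pup 3. Plxna3 exceeded Plxna2 by 1.21-fold in pup 1 and 1.18-fold in pup 3, and Plxna2 exceeded Plxna4 by 1.57-fold in both. The other 6 neighbouring pairs did not differ beyond that spread, among them Plxnb2 and Nrp1, whose order was opposite in the 2 pups. Over protein-coding transcripts, 2 neighbouring pairs differed, Nrp1 above Plxna1 and Plxnb2 above Plxna2 (1.5-fold in pup 1 and 1.63-fold in pup 3). No test was made, because the smallest two-sided p of an exact sign-flip test over 2 animals is 0.5.

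All 10 genes had higher TPM in pup 1, as did 80.4% of the 14985 genes with a mean of at least 1 TPM. The median log2 ratio of pup 1 over pup 3, on the log2(TPM + 0.1) scale, was 0.48 for the receptor genes and 0.27 for all these genes. TMM scaling was applied to counts per effective length, and in all it lowers each TPM ratio by 0.31. After it, the medians were 0.17 for the receptor genes and -0.04 for all genes. Then 8 of the 10 lay above 0, where 45.3% of all genes did; Plxnb2, at -0.036, and Plxnd1, at -0.12, changed sign.

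**Figure D4:**
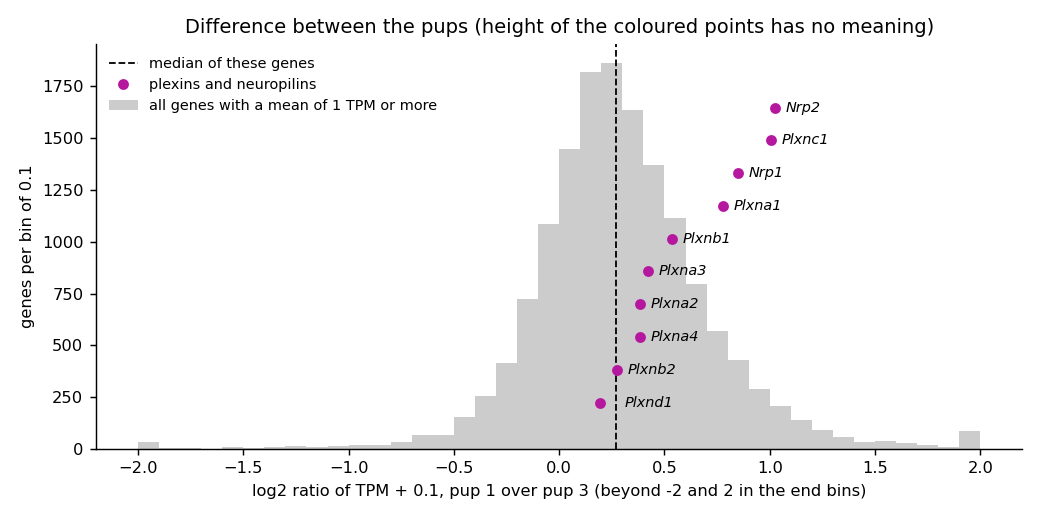
Log2 ratio of TPM + 0.1 in pup 1 over pup 3 for the 10 receptor genes, over a histogram of all genes of at least 1 TPM on average, with their median of 0.27 as a dashed line; the height of the coloured points has no meaning. All 10 lay above 0, and Nrp2 and Plxnc1 lay just past 2-fold, a log2 ratio of 1.

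Genes were counted as differing between the pups at a 2-fold ratio with deposited credibility intervals that did not overlap. This held for Nrp2 (log2 ratio 1.02) and Plxnc1 (1.00), both higher in pup 1, so for 2 of the 10 genes where 3.97% of all 14985 genes were called and 3.84% were called as higher in pup 1. Both lay close to the threshold, and Nrp1, at 1.81-fold, lay just under it. Neither passed after TMM scaling (log2 ratios of 0.71 for Nrp2 and 0.69 for Plxnc1, with 1.46% of all genes called) or with a pseudocount of 1 (0.98 for Nrp2 and 0.89 for Plxnc1, with 1.8% called), nor with counts scaled by DESeq2 size factors (1.51% called). With posterior mean TPM, Nrp2 alone passed, where 3.34% of all genes did. At a 1.5-fold threshold Nrp1 and Plxna1 joined them, so that 4 of the 10 passed where 16.9% of all genes did. The thalamic marker sum was also higher in pup 1, at 361.9 TPM in pup 1 against 141.0 TPM in pup 3, and its part in these differences was not tested.

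The ratio between the pups also went with gene length. Over protein-coding genes with an effective length of at least 5000 nt, a class that holds 8 of the 10 receptor genes, the median log2 ratio was 0.55 over 1289 genes, and it was 0.41 for lengths of 3000 to 5000 nt, the class of Plxnb2 and Plxna3. For genes below 1500 nt the median was 0.03. The median of the 10 receptor genes, 0.48, thus lay between the medians of the 2 length classes that hold them. After TMM scaling the receptor median, 0.17, also lay between those of these classes. They were 0.25 for at least 5000 nt and 0.097 for 3000 to 5000 nt. The part of length in the ratios of the receptor genes was not tested.

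The partners of these receptors were described from 7 lists with 69 genes, of which 66 were detected. Of the secreted class 3 semaphorins 6 of 7 were detected. Sema3c, an attractant of cortical axons in the corpus callosum, was the highest, with 18.8 TPM in pup 1 and 14.1 TPM in pup 3, followed by the repellent Sema3a, with 10.5 TPM in pup 1 and 8.24 TPM in pup 3. Sema3g, a vascular semaphorin that binds Nrp2, stayed below the threshold, with 0.27 TPM in pup 1 and 0.19 TPM in pup 3. The 7 genes summed to 44.7 TPM in pup 1 and 34.6 TPM in pup 3, against 78.8 TPM in pup 1 and 41.9 TPM in pup 3 for the neuropilins that most of them bind.

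All 13 membrane-bound semaphorins were detected. Sema6a, a ligand of Plxna2 and Plxna4, led with 29.9 TPM in pup 1 and 17.96 TPM in pup 3, and Sema6c followed with 24.5 TPM in pup 1 and 19.9 TPM in pup 3. By the rule used for the receptor genes, 2 of the 69 partner genes (2.9%, where 3.97% of all genes were called) differed between the pups, both in this list: Sema6d, with 19.4 TPM in pup 1 and 6.99 TPM in pup 3, and Sema5b, with 11.1 TPM in pup 1 and 5.21 TPM in pup 3. After TMM scaling Sema6d alone passed, with a log2 ratio of 1.15 against 0.76 for Sema5b. All 4 VEGF ligands were detected; Vegfb, which binds Nrp1, was the highest, with 56.0 TPM in pup 1 and 43.9 TPM in pup 3, and Vegfa the lowest, with 1.51 TPM in pup 1 and 1.37 TPM in pup 3.

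Of 12 coreceptors 10 were detected. The adhesion molecules Chl1 and L1cam, which associate with Nrp1 in Sema3a signalling, were the highest, Chl1 with 92.6 TPM in pup 1 and 68.6 TPM in pup 3 and L1cam with 87.5 TPM in pup 1 and 63.7 TPM in pup 3. Both lay above Nrp1 in each pup. Mst1r, the Ron kinase that associates with class B plexins, was the lowest, with 0.89 TPM in pup 1 and 0.40 TPM in pup 3, and Flt4, the VEGF-C receptor, was the other one below the threshold, with 0.96 TPM in pup 1 and 0.85 TPM in pup 3.

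Inside the cell, all 11 small GTPases, all 6 of their exchange factors and GTPase-activating proteins and all 16 other cytosolic effectors were detected. Rac1, which binds plexin tails, had 333.7 TPM in pup 1 and 305.7 TPM in pup 3, and Rhod, which binds Plxna1, was the lowest GTPase with 3.64 TPM in pup 1 and 3.80 TPM in pup 3. Farp2, an exchange factor in Nrp1 and Plxna1 signalling, had 1.81 TPM in pup 1 and 1.5 TPM in pup 3, the lowest of its list, in which Sh3bp1, a GTPase-activating protein for Rac, was the highest with 154.1 TPM in pup 1 and 148.1 TPM in pup 3. Among the cytosolic effectors the actin-severing Cfl1 had 3054 TPM in pup 1 and 3303 TPM in pup 3, Dpysl2 (CRMP2), which relays Sema3a signals to microtubules, had 1418 TPM in pup 1 and 1037 TPM in pup 3, and the kinase Fes was the lowest with 1.75 TPM in pup 1 and 1.55 TPM in pup 3. The levels of the intracellular partners thus reached far above those of the receptors, whose highest value was the 51.5 TPM of Nrp1 in pup 1.

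**Figure D5:**
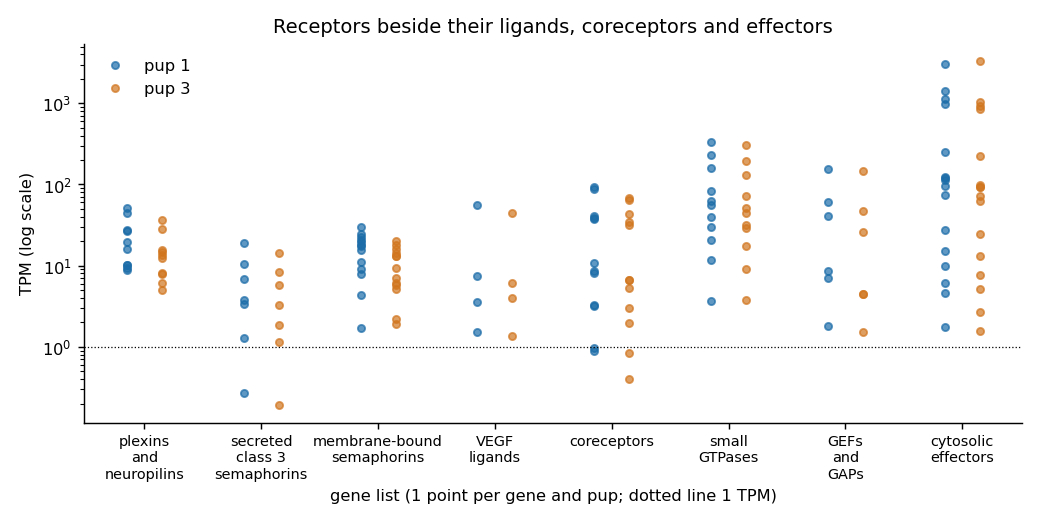
TPM (log axis) in pup 1 and pup 3 of the receptor genes and of the 7 lists of partner genes, 1 point per gene and pup, with a dotted line at 1 TPM. The receptor genes ran between 4.97 and 51.5 TPM, and the small GTPases and cytosolic effectors reached higher levels.

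Antisense transcripts could add to 3 of the receptor genes, since the strand setting of the counting was not given in the sources used here. Genes on the other strand, Gm26811 in Plxna1, Gm7628 in Plxnb1 and Plxna4os3 in Plxna4, overlap annotated exons. Gm26811 had 10.4 expected counts in pup 1 and 1.04 in pup 3, beside 5738 in pup 1 and 3944 in pup 3 for Plxna1. Gm7628 had 17.4 in pup 1 and 17.2 in pup 3, beside 1636 in pup 1 and 1202 in pup 3 for Plxnb1, and Plxna4os3 was listed at 0 in both.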

How the data were processed

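Total RNA of 2 newborn forebrains was measured in 1 library each. Quantification used mm10 with GENCODE M4, per the deposited notes (aligner, quantifier and strand setting: not given in the sources used here). Tables from the authors give expected counts, which divide shared reads and need not be whole, TPM, FPKM, and each transcript's percent of its gene's TPM. They also hold the authors' posterior mean TPM and credibility bounds of unstated level, model scores that were used as deposited. Names, positions and sequences came from GENCODE M21 on the same build, with identifiers matched without version: 42462 of 43346 genes matched, and 39 of the 45 receptor transcripts kept their length (Nrp1-201 has 5907 nt in the tables and 3597 nt in M21).

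Ratios used log2(TPM + 0.1), which understates changes of low genes. Differing genes had a mean of at least 1 TPM, a ratio of at least 2-fold and separate intervals. These intervals surround the posterior mean, not the TPM of the ratio. TMM factors (1.05 in pup 1 and 0.950 in pup 3) came from edgeR 4.0.16 on counts rounded to whole numbers, with DESeq2 1.42.0 size factors as an alternative (R 4.3.3). TMM-scaled ratios divide counts per effective length by the TMM library size. Their shift of 0.31 from TPM ratios thus holds the TMM factors and also the FPKM totals (620713 in pup 1 and 695922 in pup 3). Tables and figures were made in Python 3.11.15 with matplotlib 3.10.9, scipy 1.17.1, pandas 2.3.3 and numpy 2.4.6. Named genes were all receptor genes, the highest, lowest and, in lists of 6 or more, second highest partner, the highest or lowest marker where given, leading transcripts and others of at least 10% in both pups; Sema3e, Flt4, Sema6d, Sema5b, Lhx9, the overlapping antisense genes and further transcripts were named after their values were seen. The rule for the receptor genes used no measured value, but these genes and the lists were chosen with earlier results of these data known. Alternatives covered thresholds, pseudocounts, scaling, posterior means, coding transcripts and each pup alone.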

Additional observations from a re-analysis of the deposited data

How the results depend on the processing

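Of the summary values, 29 alternatives were counted as leaving them the same and 8 as moving them. Values with an SD that shifted by less than it were counted as the same. An example is the summed plexin level of 151.2 TPM after rescaling TPM over nuclear protein-coding genes. With 2 pups, leaving 1 out always shifts a mean by less than the SD. For sums, shares and the ratio of Nrp1 to Nrp2, those alternatives could therefore only count as the same. The 29 included counts that changed slightly. Neighbouring pairs beyond the spread went from 3 to 2 over protein-coding transcripts, where Nrp1 above Plxna1 alone was kept. Receptor genes with the same leading transcript in both pups went from 9 to 10 over protein-coding transcripts. Nrp1, Plxna2, Plxna3, Plxna4 and Plxnc1 had a single protein-coding transcript, so their agreement on that scale was fixed. Detected partner genes went from 66 to 67 at a threshold of 0.5 TPM. At 10 TPM, 6 receptor genes were detected, among them Plxna3, which fell below 10 TPM in pup 3 over protein-coding transcripts. The 2 receptor genes that differed between the pups became 4 at 1.5-fold (Nrp1 and Plxna1 added, with 16.9% of all genes called), 1 with posterior mean TPM (Nrp2), and 0 each with a pseudocount of 1, with edgeR's TMM scaling and with counts scaled by DESeq2 size factors. No p-values were computed. Over protein-coding transcripts the summed level of the listed plexins was 95.9 TPM, against 126.2 TPM over all transcripts, and the class A share 55.3%, against 48.7%. TMM scaling reversed the log2 ratio between the pups of Plxnb2 (-0.036) and Plxnd1 (-0.12). Using 1 pup at a time gave a summed plexin level of 106.5 to 145.9 TPM, a class A share of 47.3 to 49.997%, a log2 ratio of Nrp1 to Nrp2 of 0.91 to 1.09, 10 detected receptor genes and 66 detected partner genes. Depth did not limit detection, as the lowest receptor count was 972; 2 animals limit every statement on spread. No paired analysis was possible because both pups belong to 1 group.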

Other observations

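The levels of cell type markers gave the tissue in which these receptors were measured. In several lists the highest gene set the sum, so the sum is also given without it. The 6 markers of cortical projection neurons summed to 407.0 TPM in pup 1 and 524.0 TPM in pup 3, but without Neurod6 the other 5 summed to 200.8 TPM in pup 1 and 194.6 TPM in pup 3, and 3 of the 6 had higher TPM in pup 1. The 6 radial glia markers summed to 2717 TPM in pup 1 and 2786 TPM in pup 3, and without Fabp7, a fatty acid binding protein, the other 5 summed to 458.7 TPM in pup 1 and 353.1 TPM in pup 3, each of them higher in pup 1.

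The 8 microglial markers summed to 179.0 TPM in pup 1 and 178.9 TPM in pup 3, with 4 of the 8 higher in pup 1. All 6 markers of the oligodendrocyte lineage had higher TPM in pup 1 and summed to 181.0 TPM in pup 1 and 152.9 TPM in pup 3. All 6 general neuronal markers did too, with sums of 4009 TPM in pup 1 and 3410 TPM in pup 3. These directions are on TPM as deposited, on which 80.4% of all genes were higher in pup 1. After TMM scaling 5 of the radial glia, 4 of the oligodendrocyte and 3 of the neuronal markers lay higher in pup 1. So did 2 of the microglial markers and 1 of the markers of cortical projection neurons. Relations of the receptor genes to these markers were not tested, since 2 libraries give no pattern.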
